A study of Mus musculus with 20 samples.

Results

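The 10 genes described here are 9 UDP-glucuronosyltransferase genes of the 2 and 3 families (Ugt2b1, Ugt2b5, Ugt2b34, Ugt2b35, Ugt2b36, Ugt2b38, Ugt2a3, Ugt3a1 and Ugt3a2) and Ugdh, the gene of UDP-glucose dehydrogenase. They were taken as every probe set whose symbol in the platform annotation is exactly one of these names, which gave 12 probe sets of 45037 (10 genes of 18193), with a pair of probe sets each for Ugt2b34 and Ugt3a1. Liver RNA of male mice, 9 weeks old when dosing began, was profiled on 20 Affymetrix Mouse430_2 arrays (1 for each animal) in 4 groups of 5. WT mice (PXR+/+, strain C57BL/6) received vehicle (0 mg/kg) or CMP013 at 150 mg/kg by oral gavage once a day and were sampled at 96 h. PXR-KO mice (PXR-/-), which lack the pregnane X receptor, a nuclear receptor that many drugs activate, received the same vehicle or the same dose of CMP013 for the same time. CMP013 is a small-molecule inhibitor of the protease BACE1, and the vehicle was an acidified aqueous suspension of a cellulose polymer with detergent. The labels give the PXR-KO animals the strain C57BL/6 in one field and C57BL/6NTac in another, so genotype and substrain cannot be told apart. The knockout covers every cell of the body, and whole liver was measured, so that fewer cells of a type and less RNA per cell cannot be told apart.

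Each deposited value is the log10 ratio of an animal's intensity to its genotype's vehicle mean (5 animals), printed here as log2. A value of 0 therefore marks the vehicle level of that genotype, a value of 1 a doubling, and levels can be compared neither between genotypes under vehicle nor between genes. For the same reason the loss of Nr1i2, the gene of PXR, could not be checked as a level. At its pair of probe sets the responses of Nr1i2 in WT mice were 0.08 and -0.29 log2 units (adjusted p = 0.75 and 0.15). In PXR-KO mice they were 0.46 and 0.54 (adjusted p = 0.025 and 0.043). The Nr1i2 responses of the genotypes differed by -0.39 and -0.82 (limma, adjusted p = 0.092 and 0.0036). The standard deviation of the log2 ratios over all probe sets was 0.334 to 0.395 in WT vehicle, 0.340 to 0.463 in PXR-KO vehicle, 0.587 to 0.704 in WT CMP013 and 0.468 to 0.568 in PXR-KO CMP013 arrays. On the second principal component (14.7% of the variance), WT vehicle animals 3 and 4 and PXR-KO vehicle animals 2 and 4 stood apart, with scores of 49.2 to 73.3 against -8.23 to 15.6 in the other 6 vehicle animals. For the 12 member probe sets, calls that change without these 4 are named beside the result. Over the array, leaving them out took the calls from 6480 to 3308 in WT and from 1645 to 363 in PXR-KO mice. Calls of the other genes named here were not followed in this way. RNA integrity, as the labels state it, ran slightly lower in the PXR-KO than in the WT samples.

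Glucuronidation joins glucuronic acid to bilirubin, steroids, bile acids and drugs, which makes them soluble enough for bile and urine, and the liver is its main site. Ugdh oxidizes UDP-glucose to UDP-glucuronate, the shared donor, and the UGT1 and UGT2 enzymes of the endoplasmic reticulum transfer it to their substrates. The UGT3 enzymes belong to the same superfamily but use other UDP-sugars as donors.

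All 10 genes were found in the RefSeq annotation of GRCm38.p6 by gene ID, and 9 have a promoter window there, Ugt3a2 being the exception. Ugt2b34, Ugt2b1, Ugt2b35, Ugt2b36, Ugt2b5, Ugt2a3 and Ugt2b38 lie, in this order, in a cluster of 8 genes over 534.4 kb (chr5:86889770-87424203), and the eighth, Ugt2b37, lies between Ugt2b5 and Ugt2a3. Ugdh lies elsewhere on the same chromosome (chr5:65413207-65435842, minus strand). Ugt3a1 (chr15:9279822-9315038, plus strand) and Ugt3a2 (chr15:9335551-9370955) are neighbours. Over the 250 bases before the transcription start, Ugt2b38, called after CMP013 in WT mice, shared 81.5% of aligned positions with Ugt2b5, not called. The called Ugt2b35, Ugt2b34, Ugt3a1 and Ugdh were less like Ugt2b5 (58.5%, 50.7%, 50.8% and 43.1%). The 150 bases before the transcription start, 5′ to 3′ on the gene's strand, are shown for 7 genes. They cover chr5:87424204-87424353 (Ugt2b38, minus strand), chr5:87140341-87140490 (Ugt2b5, minus), chr5:87000710-87000859 (Ugt2b35, plus), chr5:87092556-87092705 (Ugt2b36, minus), chr5:86906938-86907087 (Ugt2b34, minus), chr15:9279679-9279828 (Ugt3a1, plus, where the promoter table puts the start a few bases inside the annotated gene) and chr5:65435843-65435992 (Ugdh, minus). Capitals mark a match to the HNF1 palindrome (GTTAAT, any base, ATTAAC) in the Ugt genes and the matches to the antioxidant response core TGACNNNGC in Ugdh. Ugt2b38 and Ugt2b5 hold further palindrome matches with as many mismatches, left in lower case.
Ugt2b38: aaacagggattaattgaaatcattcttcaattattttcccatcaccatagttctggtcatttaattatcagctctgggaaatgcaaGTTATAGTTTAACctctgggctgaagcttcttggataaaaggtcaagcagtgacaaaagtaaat
Ugt2b5: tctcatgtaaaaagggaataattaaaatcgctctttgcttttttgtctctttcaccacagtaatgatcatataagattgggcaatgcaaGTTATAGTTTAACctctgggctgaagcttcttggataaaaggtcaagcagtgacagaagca
Ugt2b35: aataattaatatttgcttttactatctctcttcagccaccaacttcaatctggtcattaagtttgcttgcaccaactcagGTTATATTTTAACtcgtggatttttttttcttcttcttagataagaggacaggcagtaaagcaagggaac
Ugt2b36: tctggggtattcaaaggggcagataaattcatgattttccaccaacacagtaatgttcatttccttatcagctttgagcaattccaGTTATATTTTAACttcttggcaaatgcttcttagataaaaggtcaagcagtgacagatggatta
Ugt2b34: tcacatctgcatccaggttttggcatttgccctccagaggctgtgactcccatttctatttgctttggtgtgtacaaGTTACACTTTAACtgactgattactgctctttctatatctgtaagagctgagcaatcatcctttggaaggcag
Ugt3a1: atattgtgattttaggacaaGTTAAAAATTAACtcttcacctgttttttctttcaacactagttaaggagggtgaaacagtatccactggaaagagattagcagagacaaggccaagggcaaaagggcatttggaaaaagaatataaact
Ugdh: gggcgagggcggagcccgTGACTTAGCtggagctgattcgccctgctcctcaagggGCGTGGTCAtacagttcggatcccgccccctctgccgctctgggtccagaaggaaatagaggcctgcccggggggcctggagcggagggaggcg

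Each of the 8 Ugt promoters held a match to this palindrome with at most 3 mismatches within 250 bases before the start, on the gene's strand, against 7.58% of 32851 promoter windows of all genes. HNF1 factors are hepatocyte-enriched activators, and the number of mismatches was chosen with these sequences in view. With at most 2 mismatches, 2 of the 9 windows held a match (Ugt2a3 and Ugt3a1), against 1.24% of all. The match in Ugt2b38, GTTATAGTTTAAC, has the same letters in Ugt2b5 and in Ugt2b37, and that in Ugt2b35, GTTATATTTTAAC, the same letters in Ugt2b36. Over the 250 bases before the start Ugt2b38 shares 85.2% of aligned positions with Ugt2b37, 81.5% with Ugt2b5 and 60.4% with Ugt2b36. Pairs of nuclear receptor binding hexamers were searched on both strands with at most 2 mismatches. Forms that PXR is known to bind include AGGTCA repeated after 3 or 4 bases and the everted pair of TGAACT and AGGTCA with 6 bases between. The repeat after 3 bases and the everted pair had no match in the 9 windows (2.60% and 1.84% of all windows). The repeat after 4 bases had a match with 2 mismatches in Ugt2b35 (2.57% of all). AGGTCA repeated after 1 base had a match in Ugt2b36 (3.24% of all). TTCNNNGAA, the STAT core, had no match without mismatches (7.02% of all). Ugdh held 2 matches to TGACNNNGC (10.2% of all windows), and the one nearer the start, on the opposite strand, overlaps a match to the dioxin response core GCGTG (28.2% of all). These windows are short, and binding was not measured.

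In WT mice, CMP013 moved 9 of the 12 probe sets (limma, adjusted p under 0.05), against 14.4% of all probe sets tested. Of these, 4 were higher (Ugdh, both Ugt2b34 probe sets and Ugt2b35, background 7.67%) and 5 were lower (both Ugt3a1 probe sets, Ugt2b38, Ugt3a2 and Ugt2a3, background 6.72%), while Ugt2b1, Ugt2b5 and Ugt2b36 did not pass the test. The change was at least 2-fold at 4 probe sets (Ugdh, Ugt2b38 and both of Ugt3a1), against 3.03% of all. The WT groups did not overlap at 8 of the 12, with treated animals higher at 4 (Ugdh, Ugt2b34 and Ugt2b35) and lower at 4 (Ugt3a1, Ugt3a2 and Ugt2a3), against 14.7% of all probe sets, 7.78% with treated higher and 6.96% lower. In PXR-KO mice 2 of 12 were called, both lower (Ugt2b38 and Ugt2b1), against 3.65% of all probe sets in either direction and 1.54% lower. Ugt2b38 was the member with a called change of at least 2-fold there (1.16% of all). The PXR-KO groups did not overlap at 3 of the 12 (7.57% of all), with treated animals higher at Ugdh (4.07%) and lower at Ugt2b38 and Ugt2b1 (3.5%). No member was called higher there (background 2.12%), and with no adjustment 4 members had p under 0.05, of which Ugdh was the higher one. Over the 12 probe sets the median size of change was 0.74 log2 units with the receptor (0.23 over all probe sets) and 0.21 without it (0.20 over all).

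**Figure D1:**
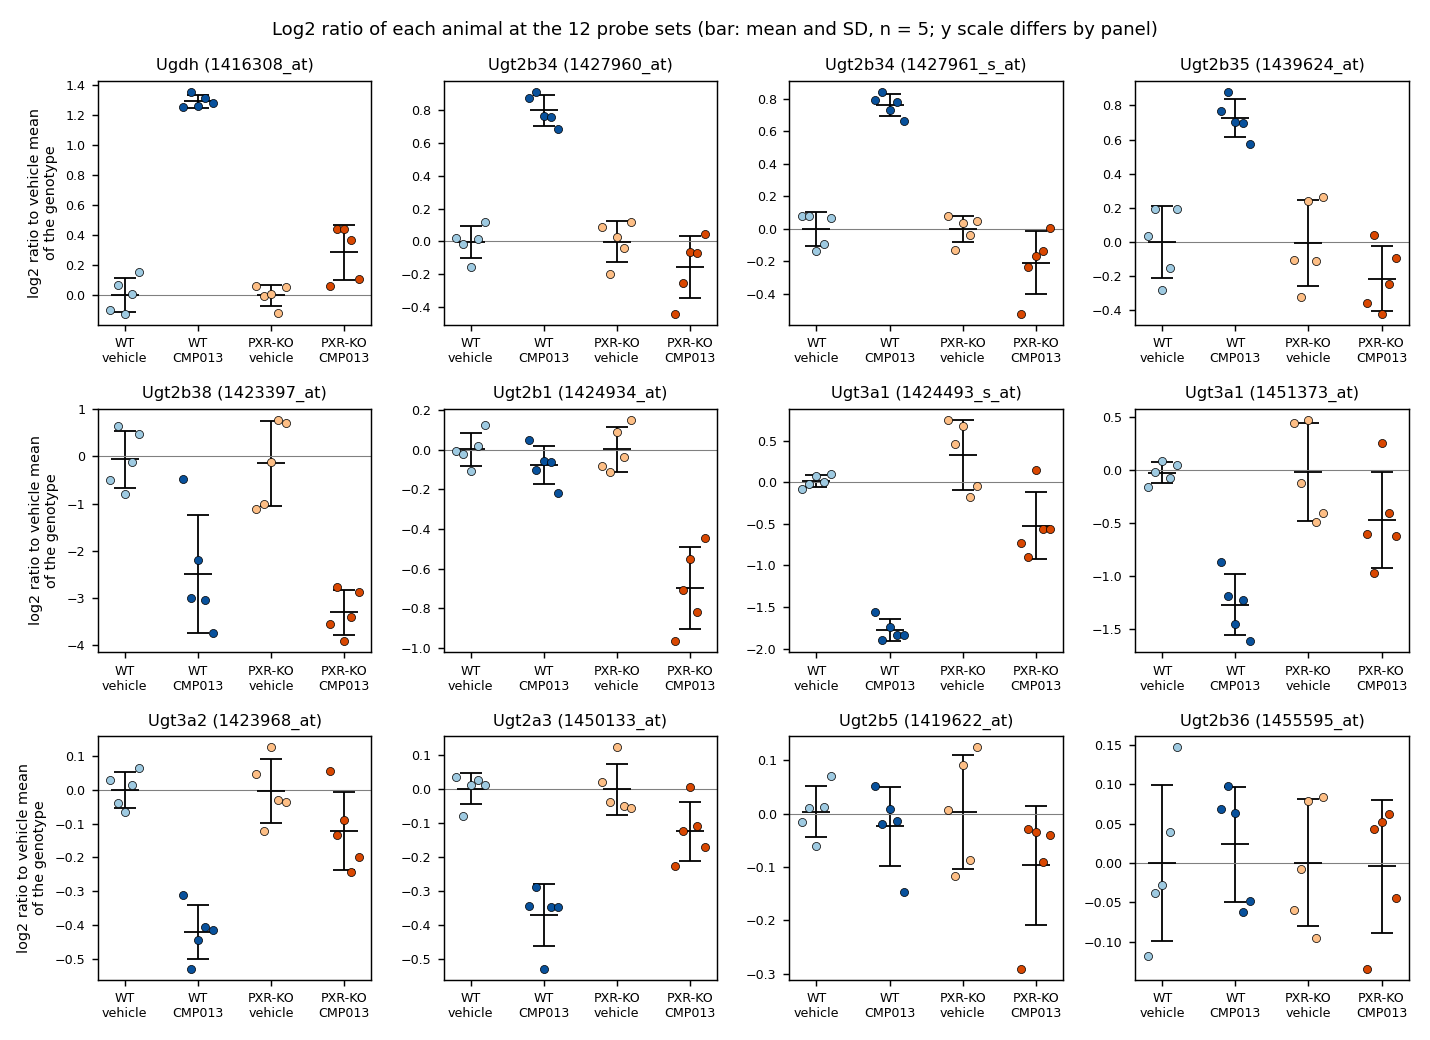
Log2 ratio of every animal to the vehicle mean of its genotype (y axis, scale differs by panel) at the 12 probe sets, by group (x axis), with the mean and SD of 5 animals. In WT CMP013 animals Ugdh sits at 1.26 to 1.36 and both Ugt2b34 panels sit above every other group, whereas the lowest Ugt2b1 values are those of PXR-KO CMP013 animals.

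Ugdh, which makes the donor of all UGT1 and UGT2 reactions, rose in WT liver. The WT vehicle animals had log2 ratios of -0.10, 0.07, -0.12, 0.01 and 0.16, and the WT CMP013 animals 1.26, 1.36, 1.26, 1.31 and 1.28. The treated animals lay close together and far above every vehicle animal. The change was 2.45-fold (log2 1.29, SE 0.08, 95% interval 1.11 to 1.47, adjusted p = 2.02e-05). In PXR-KO mice the vehicle animals had 0.06, -0.01, 0.01, -0.12 and 0.05, and the CMP013 animals 0.06, 0.44, 0.44, 0.37 and 0.11. The lowest treated animal lay just above the highest vehicle animal, so that the groups touched without overlapping. That difference of 0.29 (SE 0.10, 95% interval 0.06 to 0.51) did not pass after adjustment (adjusted p = 0.16). The Ugdh response was 1.01 log2 units larger in WT (SE 0.12, adjusted p = 3.43e-05). In this test of the difference 6 of the 12 probe sets were called, against 11% of all probe sets. The WT response was the higher at 5 (Ugdh, both of Ugt2b34, Ugt2b35 and Ugt2b1, background 5.47%) and the lower at 1 (1424493_s_at of Ugt3a1, background 5.49%), and Ugdh was the member with a called difference of at least 2-fold (3.78% of all).

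Among the UGT2B enzymes, which conjugate steroids, bile acids and drugs, Ugt2b34 and Ugt2b35 were the members that rose in WT mice. At the first Ugt2b34 probe set (1427960_at) the WT vehicle animals had 0.02, -0.01, -0.16, 0.02 and 0.12, and the WT CMP013 animals 0.87, 0.91, 0.76, 0.76 and 0.68. The groups were clearly separate, and the change was 1.74-fold (log2 0.80, SE 0.08, adjusted p = 0.000303). In PXR-KO mice the vehicle animals had 0.09, -0.20, 0.03, -0.04 and 0.12 and the CMP013 animals -0.44, -0.25, -0.07, -0.07 and 0.05. These groups overlapped, and the difference of -0.15 (95% interval -0.41 to 0.10) did not pass (adjusted p = 0.48). The second Ugt2b34 probe set (1427961_s_at) gave a WT response of 0.76 (adjusted p = 0.000345) and one of -0.21 without the receptor (adjusted p = 0.31). The responses of the genotypes differed at both probe sets, by 0.96 (SE 0.13, adjusted p = 0.000139) and 0.97 (SE 0.13, adjusted p = 7.07e-05).

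Ugt2b35, which lies on the plus strand among minus-strand neighbours, showed a like pattern with more spread. The WT vehicle animals had 0.04, 0.19, -0.28, -0.15 and 0.19, and the WT CMP013 animals 0.77, 0.88, 0.70, 0.70 and 0.57. Every treated WT animal was above every vehicle animal, a change of 1.66-fold (log2 0.73, SE 0.12, adjusted p = 0.00271). The PXR-KO vehicle animals had -0.11, -0.32, 0.24, -0.11 and 0.26, and the PXR-KO CMP013 animals -0.36, 0.04, -0.42, -0.25 and -0.09. The PXR-KO groups overlapped, with a difference of -0.21 (95% interval -0.52 to 0.11, adjusted p = 0.45). WT and PXR-KO responses differed by 0.93 (SE 0.18, adjusted p = 0.00244). With quantile normalization neither the WT response (0.52, adjusted p = 0.064) nor the difference (0.77, adjusted p = 0.060) of Ugt2b35 was called.

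Ugt2b38 fell in both genotypes and had the widest swings of the 10 genes. The WT vehicle animals had -0.49, 0.64, -0.79, -0.13 and 0.47, and the WT CMP013 animals -0.47, -3.00, -2.20, -3.04 and -3.75. Animal 1 of the WT CMP013 group stayed within the vehicle range, while the other 4 lay well below it. The WT change was -2.43 (SE 0.56, 95% interval -3.68 to -1.19, adjusted p = 0.0171), a 5.40-fold decrease. Without WT CMP013 animal 1 it was -2.94 (adjusted p = 0.00177), and without the 4 vehicle animals that stood apart it was -2.70 and no longer called (adjusted p = 0.054). In PXR-KO mice the vehicle animals had -1.11, -1.01, -0.12, 0.78 and 0.72, and the CMP013 animals -3.56, -2.77, -3.92, -3.41 and -2.88. No treated PXR-KO animal reached the vehicle range, and the change was -3.16 (SE 0.41, 95% interval -4.07 to -2.25, adjusted p = 0.00482), an 8.94-fold decrease. The PXR-KO change was not called under trended, robust variances (adjusted p = 0.054), where no probe set on the array was, and the WT change was not called under quantile normalization (-1.99, adjusted p = 0.066). Ugt2b38 was the member called in both genotypes, as 1.27% of all probe sets were. The responses differed by 0.73 with a 95% interval of -0.80 to 2.26 (adjusted p = 0.58), an interval too wide to show that they were alike.

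Ugt2b1 fell in PXR-KO mice. There the vehicle animals had -0.08, -0.11, 0.09, -0.04 and 0.15, and the CMP013 animals -0.97, -0.71, -0.55, -0.82 and -0.45. Every treated animal was below every vehicle animal, a 1.63-fold decrease (log2 -0.70, SE 0.12, adjusted p = 0.0124). The WT vehicle animals had -0.01, -0.02, -0.10, 0.02 and 0.12, and the WT CMP013 animals 0.05, -0.10, -0.06, -0.06 and -0.22. The WT groups overlapped, and the difference was -0.08 (95% interval -0.27 to 0.10, adjusted p = 0.59). The responses differed by 0.62 (SE 0.13, adjusted p = 0.00531). The PXR-KO decrease of Ugt2b1 was not called without the 4 vehicle animals that stood apart (-0.75, adjusted p = 0.057) or under trended, robust variances (adjusted p = 0.069).

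The remaining UGT2 members moved little. Ugt2b5 and Ugt2b36 were called in no comparison. At Ugt2b5, whose promoter window is 81.5% identical to that of Ugt2b38, the WT response was -0.03 (95% interval -0.19 to 0.14, adjusted p = 0.86) and the PXR-KO response -0.10 (95% interval -0.30 to 0.10, adjusted p = 0.58). At Ugt2b36 they were 0.02 (95% interval -0.16 to 0.21, adjusted p = 0.89) and 0.00 (95% interval -0.19 to 0.18, adjusted p = 0.98). Small changes within these intervals were not detectable with 5 animals a group. Ugt2a3, a transferase of liver and gut, was lower in WT CMP013 animals, which ranged from -0.53 to -0.29 with vehicle at -0.08 to 0.03. Its WT change was -0.37 (SE 0.08, adjusted p = 0.0105), and it was -0.12 in PXR-KO mice (adjusted p = 0.43). The difference of the Ugt2a3 responses (-0.25, SE 0.10) did not pass (adjusted p = 0.11). Without the 4 vehicle animals that stood apart the WT change of Ugt2a3 was -0.36 and no longer called (adjusted p = 0.072), nor was it under quantile normalization (-0.28, adjusted p = 0.11).

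The UGT3A genes were lower in WT mice. At 1424493_s_at of Ugt3a1 the WT vehicle animals had -0.08, -0.02, 0.07, 0.00 and 0.10, and the WT CMP013 animals -1.56, -1.90, -1.74, -1.84 and -1.84. This 3.46-fold decrease (log2 -1.79, SE 0.09, adjusted p = 4.39e-06) was the WT change of lowest p among the 12 probe sets. The PXR-KO vehicle animals had 0.75, 0.46, 0.67, -0.18 and -0.05, and the PXR-KO CMP013 animals -0.74, -0.90, 0.14, -0.56 and -0.56. Here the groups overlapped through CMP013 animal 3, and the vehicle mean of 0.33 lay off the 0 that the ratio should give. The PXR-KO difference was -0.85 (SE 0.24, 95% interval -1.38 to -0.32, adjusted p = 0.082), and without CMP013 animal 3 it was -1.02 and was called (adjusted p = 0.035). With all 4 groups in one fit it was also called (adjusted p = 0.00882).

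At 1451373_at of Ugt3a1 the WT CMP013 animals had -0.87, -1.19, -1.45, -1.23 and -1.62, with vehicle at -0.16 to 0.08. Expression fell to 0.422 of the vehicle level there (95% interval 0.342 to 0.520, adjusted p = 0.00038), a 2.37-fold decrease. The PXR-KO vehicle animals had 0.44, -0.12, 0.47, -0.50 and -0.41, and the CMP013 animals -0.60, -0.97, 0.25, -0.41 and -0.63. Ugt3a1 varied far more among PXR-KO than among WT vehicle animals (SD 0.46 and 0.10 at this probe set), and the PXR-KO difference of -0.45 (SE 0.26) did not pass (adjusted p = 0.37). The responses differed by -0.94 at 1424493_s_at (SE 0.26, adjusted p = 0.0271). At 1451373_at the difference had the same sign and a similar size but did not pass (-0.80, SE 0.31, adjusted p = 0.11). The call at 1424493_s_at was lost without the 4 vehicle animals that stood apart (-0.79, adjusted p = 0.15), under quantile normalization (-0.58, adjusted p = 0.41) and without PXR-KO vehicle animal 5 (-0.84, adjusted p = 0.051). Ugt3a2, its neighbour, had -0.31, -0.53, -0.44, -0.40 and -0.41 in WT CMP013 animals with vehicle at -0.07 to 0.07, a change of -0.42 (SE 0.08, adjusted p = 0.00518) that was not called under quantile normalization (-0.31, adjusted p = 0.069). In PXR-KO mice the Ugt3a2 difference was -0.12 (adjusted p = 0.50), and the responses differed by -0.30 (SE 0.10, adjusted p = 0.069). The plot of responses sets the 10 genes side by side.

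**Figure D2:**
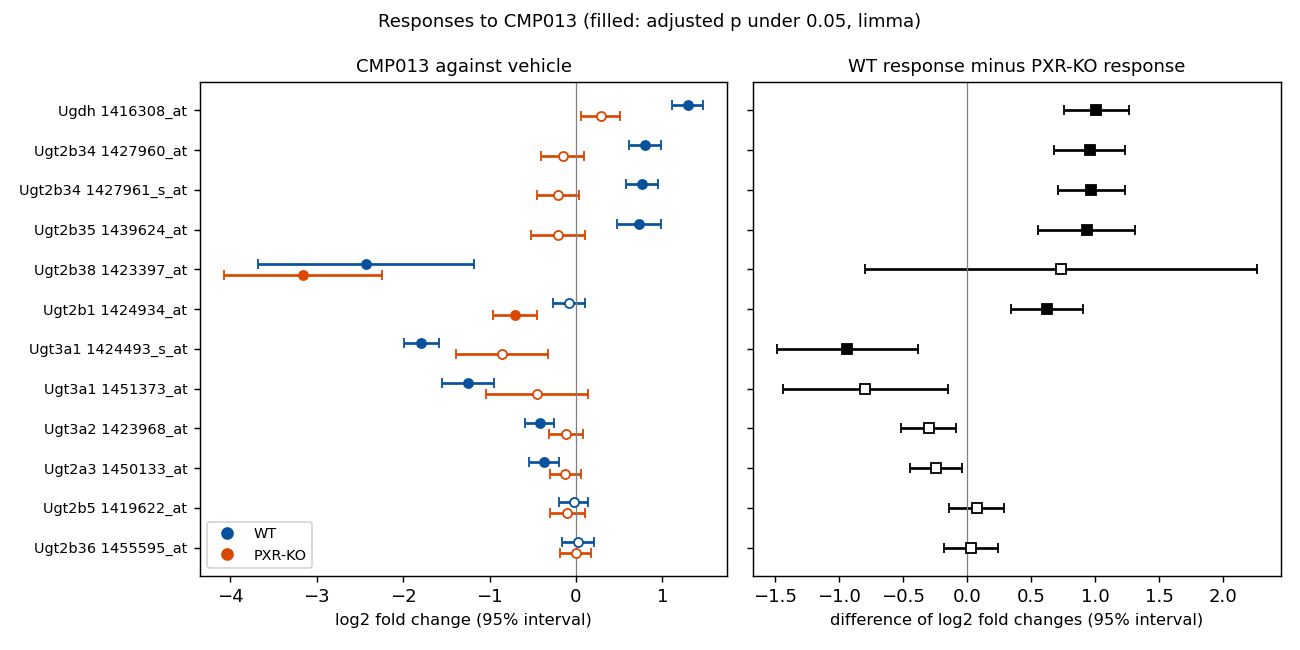
Left, log2 fold change of CMP013 against vehicle (x axis) with its 95% interval at each of the 12 probe sets in WT and PXR-KO mice, and right, the difference of these responses (WT minus PXR-KO) with its 95% interval, filled where the adjusted p was under 0.05. The filled points at the right run from Ugdh (1.01) to 1424493_s_at of Ugt3a1 (-0.94), and the interval of Ugt2b38 spans 0.

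Beside these responses the marker genes of liver cell types moved as follows. Of 7 hepatocyte markers 1 (Fgb) was called lower in WT, and without PXR none passed the test (lowest adjusted p = 0.25). Their mean log2 ratio ran from -0.07 to 0.11 in WT vehicle, -0.22 to -0.02 in WT CMP013, -0.12 to 0.09 in PXR-KO vehicle and -0.17 to -0.09 in PXR-KO CMP013 animals. Of 8 leukocyte markers 1 (S100a8) was called higher in PXR-KO mice, and their mean lay between -0.11 and 0.09 in vehicle animals and between 0.30 and 1.18 in CMP013 animals. S100a8 (4.24-fold) and S100a9 (4.15-fold, adjusted p = 0.15) had the highest changes, the median of the list was 0.31, and Ms4a1 and Nkg7 were at -0.45 and 0.06. For 8 Kupffer cell and macrophage markers the mean of PXR-KO mice lay between -0.54 and 0.59 under vehicle and between 0.36 and 0.78 under CMP013, with 2 called higher (Marco, 4.22, and Cd68, 1.11). The median change of that list was 0.12, with Clec4f at -0.28, Csf1r at -0.19, Adgre1 at -0.14 and Timd4 at 0.00. In the same PXR-KO animals Ugt2b1 and Ugt2b38 were lower, while Ugt2b5 and Ugt2b36 were not called, and the part of these marker shifts was not tested. The leukocyte mean of WT mice ran from -0.24 to 0.17 under vehicle and from -0.15 to 0.24 under CMP013. In WT mice 3 of 6 endothelial markers (Stab1, Stab2 and Kdr), 3 of 8 Kupffer cell markers (Clec4f, Vsig4 and Csf1r) and 1 of 7 stellate cell markers (Lrat) were called lower, and 2 of 8 leukocyte markers (S100a8 and S100a9) higher. In PXR-KO mice Lyve1 was called higher and Kdr lower among the endothelial markers, and no stellate cell marker was called. None of the 5 bile duct markers was called by limma in either genotype. Absolute levels of the markers were not analysed here.

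The other UGT genes were measured less specifically. The UGT1A genes, which share their last exons, were covered by 3 probe sets that each name 8 genes. Their WT responses were 0.22, 0.16 and 0.28 (adjusted p = 0.066, 0.15 and 0.021). Without the receptor they were 0.00, -0.01 and 0.12, and none was called by limma (lowest adjusted p = 0.40, none at an unadjusted p under 0.05). The responses differed by 0.22, 0.17 and 0.15, and these differences did not pass either (adjusted p = 0.10, 0.18 and 0.26). Ugt2b37, the cluster gene most like Ugt2b38 in its promoter window, was at 0.58 in WT (SE 0.37, adjusted p = 0.35) and at -0.84 without PXR (SE 0.31, adjusted p = 0.17). Its responses differed by 1.42 (SE 0.50, adjusted p = 0.080). Whether transcripts of Ugt2b5, Ugt2b37 and Ugt2b38 bind each other's probes was not tested. Ugt8a, which makes galactosylceramide, was lower in WT at 1419064_a_at (-0.73, adjusted p = 0.00236) but not at 1419063_at (0.20, adjusted p = 0.70).

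Of the genes that supply or use UDP-glucuronate, 5 of 7 listed were measured, and 2 rose in WT, 1 in PXR-KO mice and none was called in the difference by limma (Uxs1, the closest, had adjusted p = 0.055). Slc35d1, which carries UDP-glucuronate into the endoplasmic reticulum, rose by 0.47 in WT (SE 0.08, adjusted p = 0.00315) and was at 0.30 in PXR-KO mice (adjusted p = 0.088). Uxs1, which turns UDP-glucuronate into UDP-xylose, rose by 0.47 in WT (SE 0.12, adjusted p = 0.0254) and was at -0.01 in PXR-KO mice (adjusted p = 0.99). The phosphoglucomutase Pgm2 rose in PXR-KO mice (0.49, SE 0.11, adjusted p = 0.040), and the Pgm1 responses, 0.00 (WT) and -0.15 (PXR-KO), did not pass (adjusted p = 0.98 and 0.36). The median WT change over this list was 0.11, against -0.01 over all probe sets.

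Downstream of the transferases, 3 of 5 genes of glucuronide export and hydrolysis rose in WT, and 1 fell in PXR-KO mice. Abcc3, the exporter of glucuronides to blood, rose by 1.28 in WT (SE 0.10, adjusted p = 6.01e-05), a size close to that of Ugdh, and was at 0.42 in PXR-KO mice (adjusted p = 0.068). Abcc2, the exporter to bile, rose by 0.94 in WT (SE 0.10, adjusted p = 0.000242). Abcg2, an efflux pump of the bile canaliculus, fell by 0.35 in PXR-KO mice (adjusted p = 0.047). Between genotypes 3 of the 4 measured exporters differed in their response, by 0.86 at Abcc3, 0.82 at Abcc2 and 0.57 at Abcg2 (adjusted p = 0.00067, 0.000241 and 0.00403), and the fourth, Abcc4, was at 0.37 (WT) and 0.30 (PXR-KO) with no call (difference 0.07, SE 0.34, adjusted p = 0.93). Gusb, the lysosomal glucuronidase, rose by 0.42 in WT (adjusted p = 0.029).

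The branch from free glucuronate to ascorbate and xylulose went both ways in WT. Miox, which forms glucuronate from inositol, rose by 0.90 (SE 0.20, adjusted p = 0.0136), and Cryl1, an L-gulonate dehydrogenase, by 0.57 (SE 0.11, adjusted p = 0.00667). Dcxr, the L-xylulose reductase, was lower (-0.42, SE 0.08, adjusted p = 0.00897), as was Gulo, the last enzyme of ascorbate synthesis (-0.45, SE 0.10, adjusted p = 0.0161). None of the 6 was called in PXR-KO mice by limma (lowest adjusted p = 0.25), and the responses of Miox and Cryl1 differed between genotypes (adjusted p = 0.031 at each).

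Among 8 measured receptors and factors known to act on UGT genes, 4 were lower in WT, 3 higher in PXR-KO mice (Nr1i3, Nr1i2 and Nfe2l2) and 3 lower in the difference. Nr1i2 is the deleted gene, and what its probe sets detect in PXR-KO mice was not tested. Nr1i3 (CAR), the receptor most related to PXR, was lower in WT (-0.70, SE 0.18, adjusted p = 0.028) and higher without PXR (1.61, SE 0.15, adjusted p = 0.00138), and the responses differed by -2.31 (SE 0.24, adjusted p = 8.25e-06). Hnf4a, a hepatocyte master regulator, was lower in WT (-0.45, adjusted p = 0.020) and at 0.37 without PXR (adjusted p = 0.12), a difference of -0.82 (adjusted p = 0.00202). Ppara, the fatty acid receptor, was lower in WT (-0.48, adjusted p = 0.0146) and at 0.12 without PXR, a difference of -0.60 (adjusted p = 0.00723). Rxra, the partner of PXR and CAR, was lower in WT (-0.31, adjusted p = 0.0155) and at -0.21 without PXR (adjusted p = 0.26). The Rxra responses differed by -0.10, which did not pass (adjusted p = 0.61). The plot of the other glucuronidation genes shows these lists together.

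**Figure D3:**
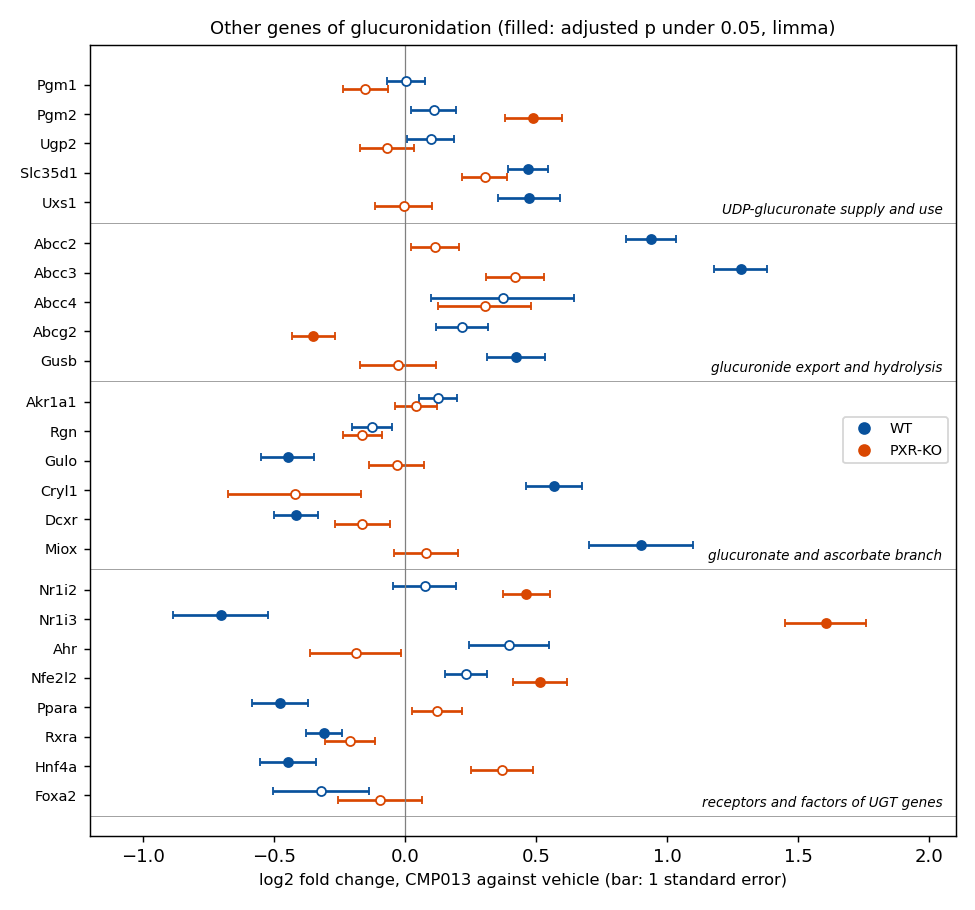
Log2 fold change of CMP013 against vehicle (x axis, bar 1 standard error) of genes that supply UDP-glucuronate, export or hydrolyse glucuronides, use free glucuronate, or act on UGT genes, in WT and PXR-KO mice, filled where the adjusted p was under 0.05. Abcc3 (1.28) is the rightmost filled WT point, and Nr1i3 is filled on opposite sides (-0.70 for WT, 1.61 for PXR-KO).

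For the 3 members whose main probe set changed by at least 1 log2 unit, the genes with the nearest pattern were taken as those with the smallest root mean square difference in log2 ratio over the 20 arrays. For Ugdh these were Entpd5 (0.105), a nucleoside diphosphatase of the endoplasmic reticulum, Kmt5a (0.108), a histone methyltransferase, and Hacd1 (0.141), a fatty acid elongation enzyme. They rose by 1.28, 1.20 and 1.13 in WT, beside 1.29 for Ugdh. Nearest to Ugt3a1 were Hykk (0.268), a hydroxylysine kinase, Chpt1 (0.272), a choline phosphotransferase, and Mfsd4b1 (0.286). Ugt2b38 had no neighbour as close, with Elovl3 (0.804), a fatty acid elongase of mouse liver, Cnmd (0.921) and Ttc39c (0.923). The Elovl3 responses were -1.92 (WT) and -3.38 (PXR-KO), beside -2.43 and -3.16 for Ugt2b38. None of the nearest genes was another of the 10 members. All 20 arrays enter this measure, so that genes with like group means come out close together. The ratios were not scaled to a gene's spread, so the wide spread of Ugt2b38 among animals adds to its distances.

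**Figure D4:**
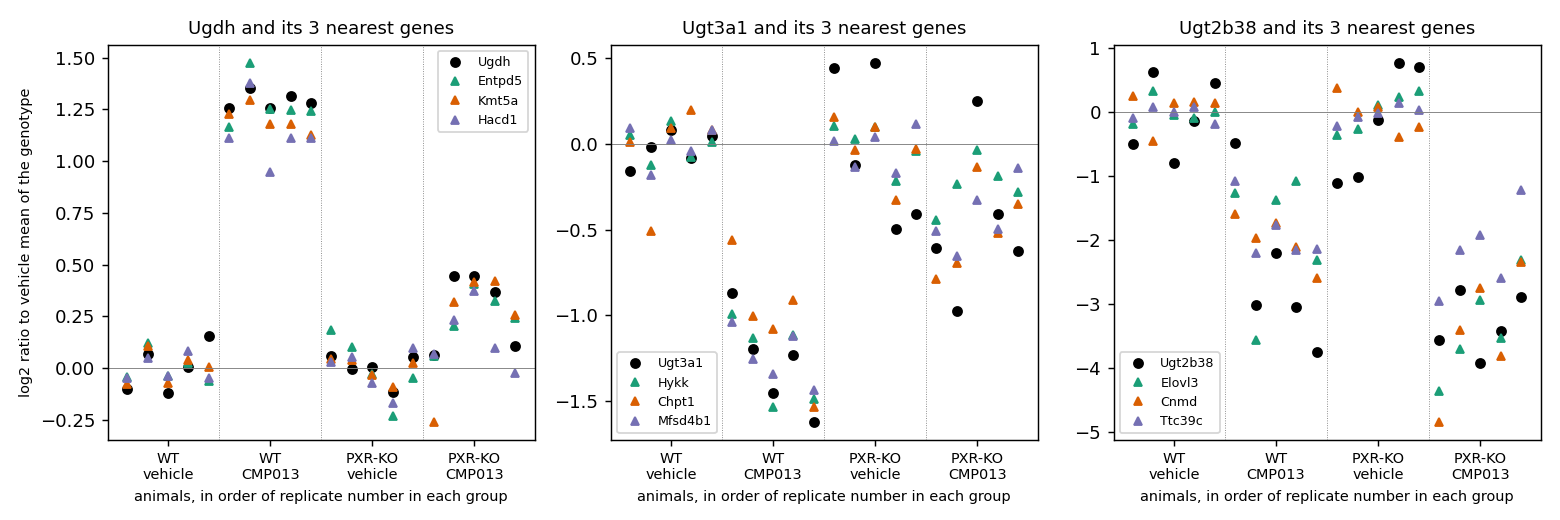
Log2 ratio of each of the 20 animals (points, grouped on the x axis) for Ugdh, Ugt3a1 (1451373_at) and Ugt2b38, each with its 3 nearest genes. The neighbours of Ugdh differ from it by a root mean square of 0.105 to 0.141 log2 units (not scaled), more in some animals. Those of Ugt2b38, which varied more among animals of a group, differ by 0.804 or more.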

How the data were processed

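Liver RNA of 20 mice was profiled on 20 arrays. The deposited values are log10 ratios that the authors made in Rosetta Resolver by dividing each animal's intensity by the mean of the 5 vehicle animals of its genotype. Since only ratios were used, the signal of each probe set over background is unknown, and dim probe sets were kept. All 20 value columns were used, and 0 columns of other samples were present. Of 45037 probe sets, 34945 name 1 gene in the platform annotation, 932 several and 9160 none. No pair of arrays was a copy (highest correlation 0.593, across probe sets). Arrays stand for separate animals, and no batch is given in the sources used here.

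The log10 ratios were multiplied by log2 of 10 and compared by limma's moderated linear models (version 3.58.1, R 4.3.3), with p-values adjusted after Benjamini and Hochberg over all 45037 probe sets and called under 0.05, within each genotype on its 10 arrays and, for the difference of responses, on all 20. Probe sets of a member are reported each. The probe set standing for a listed gene names 1 gene, preferably without _s_ or _x_, and has the smallest spread among vehicle animals. Up to 4 genes per list with the lowest adjusted p are named, beside the deleted gene and the 3 nearest genes of each member that changed by 1 log2 unit. The members, lists, alternatives and motifs were chosen with earlier results of these data known. The methods state a counting rule (each animal's ratio past 1.25-fold) with cutoffs set by permutation. A simpler form, without platform p-values or permutation, was used as an alternative. It needed at least 4 treated and at most 1 vehicle animal past 1.25-fold in the same direction, in either genotype. Other alternatives were variance models, array weights, centring, quantile normalization of the log ratios, a replicate block, filters on probe sets and leaving out animals. Motifs were matched with Python 3.11.15 on both strands of the 250 bases before each RefSeq start. The statistics were tested on simulated data.

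Replicate numbers are in the labels, but nothing there ties animals of a number across groups. Correlations of deviations between same-numbered vehicle and CMP013 animals ran from -0.242 to 0.065 in WT and from -0.202 to 0.047 in PXR-KO mice, so the samples were not paired. The number of arrays limits the precision.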

Additional observations from a re-analysis of the deposited data

Results flagged for a closer look

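The test of the difference between genotypes passed at 6 probe sets, with WT minus PXR-KO at 1.01 for Ugdh, 0.96 and 0.97 for Ugt2b34 (1427960_at and 1427961_s_at), 0.93 for Ugt2b35, 0.62 for Ugt2b1 and -0.94 for Ugt3a1 (1424493_s_at), all in log2 units. At Ugt2b1 the difference came with a called decrease in PXR-KO mice, and at the others with a called WT response. In 48 groups of 5 animals examined for a value far from the rest (Dixon's ratio above 0.71, which chance passes in about 1 of 20 groups), 3 were found: PXR-KO CMP013 animal 1 at Ugt2b5 (-0.29), WT vehicle animal 2 at Ugt2a3 (-0.080) and WT CMP013 animal 3 at Ugt2a3 (-0.53). Leaving out each of these animals changed no call of these genes.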

How the results depend on the processing

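The numbers of called members were 9 in WT, 2 in PXR-KO mice and 6 for the difference. Quantile normalization left 5 in WT. It was applied to the log ratios and gives all arrays a common distribution. Before it, the SD of the ratios was 0.334 to 0.395 in WT vehicle and 0.587 to 0.704 in WT CMP013 arrays. In PXR-KO mice trended, robust variances left 0 (none on the whole array), and leaving out the 4 vehicle animals that stood apart left 1. Leaving out each animal in turn gave 9 to 9 in WT, 2 to 3 in PXR-KO mice and 5 to 6 for the difference. With the replicate number as a block, which the labels do not establish as a pairing, 6, 1 and 5 were called. Over the array, quantile normalization took the calls from 6480 to 1773 in WT, 1645 to 495 in PXR-KO mice and 4936 to 1231 for the difference, and the block to 3026, 119 and 2497. For single probe sets 18 calls were lost and 3 gained among the alternatives. No called value changed sign, but uncalled values near 0 did when animals were left out. Ugt2b5 in WT ran from -0.046 to 0.0040, and Ugt2b36 from -0.0064 to 0.060 in WT, from -0.029 to 0.028 in PXR-KO mice and from -0.0046 to 0.065 for the difference. WT calls of Ugt3a2 and Ugt2a3 were lost under quantile normalization (-0.31 and -0.28) and under the block, which also lost the WT call of Ugt2b38 (adjusted p = 0.077), the PXR-KO call of Ugt2b1 (0.067) and the difference at 1424493_s_at of Ugt3a1 (0.052). The causes were not tested. No intensities were used, so how far a decreased probe set such as that of Ugt2b38 stayed above background was not tested.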

Other observations

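Genes of sulfate conjugation, the other large route of conjugation in liver, were called in both genotypes. Papss2, which makes the sulfate donor, rose by 1.14 in WT (SE 0.08, adjusted p = 3.11e-05) and was at -0.07 in PXR-KO mice (adjusted p = 0.80), and the responses differed by 1.21 (adjusted p = 1.71e-05). Sult2a2, a hydroxysteroid sulfotransferase, rose by 3.84 in WT (SE 0.39, adjusted p = 0.000243) and was at 0.04 in PXR-KO mice. The estrogen sulfotransferase Sult1e1 rose in PXR-KO mice (18.1-fold, adjusted p = 0.00817) and was at 1.88 in WT (SE 0.57, adjusted p = 0.054), and the difference did not pass (adjusted p = 0.11). The phenol sulfotransferase Sult1a1 rose by 0.56 in the same mice (adjusted p = 0.00859). Of the whole list, 3 of 11 genes rose and 1 fell in each genotype.

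Of 10 measured genes that are higher in male than in female mouse liver, 5 fell and 1 rose in WT mice, and 6 fell in PXR-KO mice, with median changes of -0.59 and -0.92. Serpina12 fell by 2.80 in WT (SE 0.32, adjusted p = 0.000437) and by 0.85 in PXR-KO mice (adjusted p = 0.0139), and its responses differed (adjusted p = 0.00167). Nudt7 fell by 0.61 in WT (adjusted p = 0.045) and by 1.36 in PXR-KO mice (adjusted p = 0.00587), and its difference did not pass (adjusted p = 0.076). Cyp4a12a rose by 0.49 in WT (adjusted p = 0.026) and fell by 0.99 in PXR-KO mice (adjusted p = 0.026), and its responses differed (adjusted p = 0.000495). Of 10 genes higher in females, 4 rose in WT, among them Cyp3a44 (1.69, adjusted p = 0.000113). These 4 include sulfotransferases already counted above, among them Sult2a2. In PXR-KO mice 3 rose, among them Fmo2 (1.86, adjusted p = 0.00625) and Cyp17a1 (1.49, adjusted p = 0.040). Cyp17a1 was at -1.23 in WT (adjusted p = 0.11), and its responses differed by -2.72 (adjusted p = 0.0066).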
